A study of Mus musculus with 22 samples.

Results

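The genes of 2 feeding peptides, Agrp and Npy, and of 8 receptors through which feeding signals reach hypothalamic neurons, Lepr, Ghsr, Mc4r, Mc3r, Npy1r, Npy2r, Npy5r and Insr, were followed in mouse hypothalamus. They were chosen by gene symbol, 10 of the 41456 gene IDs in the table, and all 10 had enough counts to be tested. RNA was measured in C57BL/6J mice that lack the paternal copy of the Snord116 small nucleolar RNA genes (PWScrm+/p−, called mutant) and in PWScrm+/p+ mice (called control). Mice were sampled at ZT0, the start of the light period, at ZT6, or at ZT6 once they had been kept awake for 6 h (sleep deprivation, SD). The libraries used were 4 mutant SD, 2 mutant ZT6, 4 control SD, 4 control ZT6 and 3 control ZT0, each labelled as a separate sample. No mutant ZT0 library was used, so time of day could be compared in controls only. The labels give neither age nor which hypothalamic nuclei were dissected.

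The arcuate nucleus holds neurons that make agouti-related peptide (AgRP) and neuropeptide Y together and promote feeding when energy stores are low. AgRP opposes signalling at the melanocortin receptors, while neuropeptide Y acts through its own family of receptors. Leptin and insulin restrain these neurons through the receptors encoded by Lepr and Insr, and ghrelin excites them through the receptor encoded by Ghsr. In a bulk sample, fewer cells of a type and less RNA per cell cannot be told apart.

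The genes of the 2 peptides were the one pair among the 10 whose levels correlated past adjustment over the libraries, as given below. The coding sequences of both peptides are shown. They were read from the GENCODE M21 transcripts (GRCm38), 5′ to 3′ on the coding strand. For Agrp-201 the last 50 of 131 codons and the stop codon are given (genomic span chr8:105566756-105566908, minus strand), the part that binds melanocortin receptors, and capitals mark the 10 cysteine codons there, of 11 in all. For Npy-201 (genomic span of the coding sequence chr6:49823598-49829327, plus strand), capitals mark the 36 codons of the mature peptide, codons 29 to 64 of 97.
Agrp: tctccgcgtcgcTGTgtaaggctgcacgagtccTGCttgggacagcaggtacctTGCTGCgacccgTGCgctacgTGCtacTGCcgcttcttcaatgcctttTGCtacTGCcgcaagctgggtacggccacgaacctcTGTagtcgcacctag
Npy: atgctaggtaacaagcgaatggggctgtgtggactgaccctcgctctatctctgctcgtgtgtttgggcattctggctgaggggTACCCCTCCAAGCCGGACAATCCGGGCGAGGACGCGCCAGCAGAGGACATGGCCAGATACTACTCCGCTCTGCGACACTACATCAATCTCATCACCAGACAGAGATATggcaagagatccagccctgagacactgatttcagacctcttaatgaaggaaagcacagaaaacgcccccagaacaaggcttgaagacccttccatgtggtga
Both transcripts are short, with 661 bases for Agrp-201 and 566 for Npy-201, while the joined exons of the receptor genes run from 2555 bases (Npy5r) to 13746 (Insr). The annotated Agrp gene spans chromosome 8, 105566698 to 105637393, and 114 of its exonic bases overlap exons of Gm5914 or Ctcf, so a small part of its counts is uncertain. Npy1r and Npy5r, receptors for the same ligand, lie on opposite strands of chromosome 8 with start sites 9.064 kb apart. The 300 bases around the Npy5r start (RefSeq, GRCm38.p6, chr8:66688045-66688344, minus strand) are shown. They held the one match of the 5 motifs tabulated for the promoters of Npy, Npy1r and Npy5r. A promoter was available for 7 of the 10 genes, and matches were tabulated for these named ones only.
Npy5r: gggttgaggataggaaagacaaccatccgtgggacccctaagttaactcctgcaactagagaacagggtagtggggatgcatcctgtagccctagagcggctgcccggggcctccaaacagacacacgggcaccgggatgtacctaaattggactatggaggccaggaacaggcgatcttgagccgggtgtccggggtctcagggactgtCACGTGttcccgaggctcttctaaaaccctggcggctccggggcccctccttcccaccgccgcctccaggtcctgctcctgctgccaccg
Capitals mark CACGTG, the E-box bound by clock and other basic helix-loop-helix factors, starting 40 bases before the start site. It was found in 7.15% of 32851 promoters of the same length. The other motifs were a core of the cAMP response element (TGACG), a STAT-type site (TTCNNNGAA), a FOXO-type site (GTAAACA) and a TATA box (TATAAA). They had no match on either strand of the promoters of Npy, Npy1r and Npy5r. Of the 32851 promoters, 20.8%, 8.3%, 3.65% and 13.6% held them, in that order.

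In units of 1e+06 counts, the 17 libraries held 14.6 to 47.0 each. Neuronal markers summed to 2098 to 3525 CPM (estimated counts with the library total set to 1e+06 and TMM factors applied) and hypothalamic markers such as Hcrt, Pmch, Oxt and Avp to 840 to 2187 CPM, so all carried hypothalamic neurons' transcripts. Counts of the 17 genes with a Snord116 symbol were 0 in 6 of 6 mutant libraries and above 0 in 8 of 11 controls, in polyadenylated RNA that holds few small nucleolar RNAs. Snhg14, the host transcript, had 253 to 372 CPM of the library total in 4 mutant libraries, against 393 to 2040 CPM in 9 controls. In the libraries with index numbers 43 to 46 it had 199 and 202 CPM in those labelled mutant, against 174 and 231 CPM in those labelled control, and all 4 had 0 Snord116 counts, so neither measure separated the labels there. None of the 10 genes was called with or without these 4 libraries. The pituitary marker list was high in 3 libraries, with sums of 20842 CPM (mutant SD replicate 1), 1153 CPM (mutant SD replicate 4) and 691 CPM (control ZT6 replicate 1), while the remaining 14 had 16.3 to 53.2 CPM. Controls at ZT0 all came from index numbers 5 to 18 of the sample titles, while the other groups were spread over 2 or 3 runs of index numbers.

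Npy was the most abundant of the 10 transcripts per length. Its level averaged 85.0 ± 35.1 CPM per kb of joined exons (SD, n = 17 libraries), and that of Agrp 12.7 ± 7.26. Among receptors, Npy2r, the presynaptic receptor that restrains neuropeptide Y release, had the highest level at 8.31 ± 1.77 CPM per kb. Npy1r, a main postsynaptic receptor, followed at 4.80 ± 0.975 and Insr at 4.55 ± 0.690, which overlap within their SD. Mc3r, a melanocortin receptor also made by AgRP neurons, stood at 3.04 ± 1.01. Npy5r (1.41 ± 0.881), Ghsr (1.35 ± 0.377), Mc4r (1.27 ± 0.350) and Lepr (0.849 ± 0.274) were the lowest and did not differ from their neighbours beyond the SD. Behind these levels lay 393 to 2299 counts per library for Npy, 76 to 704 for Agrp, 36 to 163 for Mc4r and 20 to 263 for Npy5r.

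**Figure D1:**
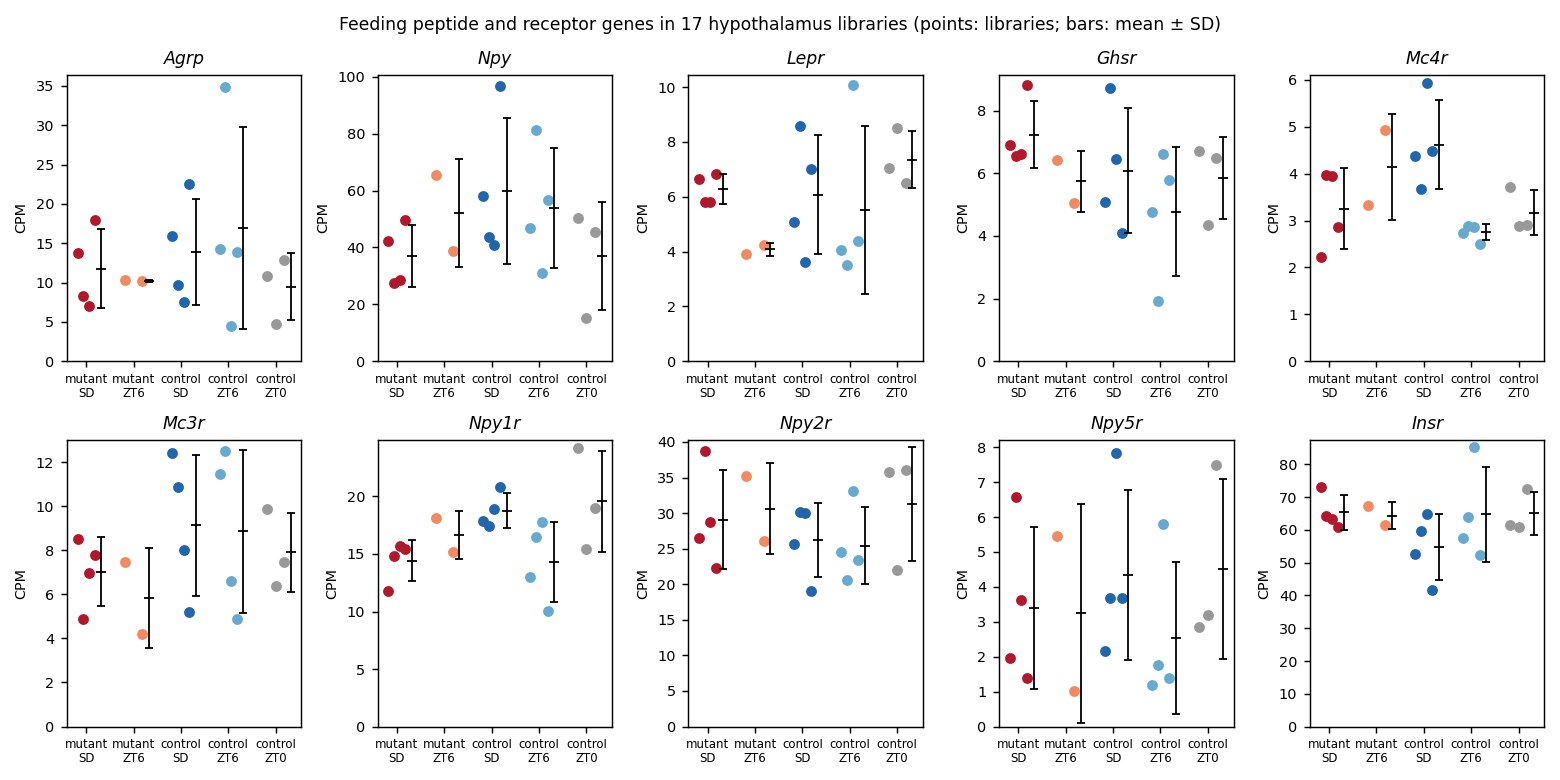
CPM of the 10 genes (y axis, from 0) in each library of the 5 groups (x axis), with the mean ± SD of the group as a bar. Control ZT6 libraries of Mc4r sit between 2.51 and 2.89 CPM, below all control SD libraries, while most other genes overlap between groups.

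Loss of paternal Snord116 gave no called difference in either peptide. Agrp had 13.8, 8.31, 7.07 and 17.9 CPM in mutant SD libraries, against 15.9, 9.64, 7.54 and 22.5 CPM in control SD libraries. The groups overlapped almost completely, with a log2 fold change of −0.24 ± 0.51 (SE). At ZT6, Agrp had 10.3 and 10.1 CPM in mutants, against 14.3, 34.9, 4.45 and 13.9 CPM in controls. The control values surrounded the mutant ones, and the log2 fold change of −0.73 ± 0.64 was −0.08 without control ZT6 replicate 2, the library with 34.9 CPM. In edgeR's quasi-likelihood test the adjusted p was 0.999 for Agrp in both comparisons.

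Npy had 42.2, 27.6, 28.4 and 49.8 CPM in mutant SD libraries, against 58.0, 43.6, 40.9 and 96.7 CPM in control SD libraries. The mutant values of 27.6 and 28.4 CPM lay below all controls and the other two within their range, so the groups overlapped. Within each run of index numbers the mutant values lay below the control ones, by a log2 difference of −0.25 (1 to 4), −0.55 (5 to 18) and −0.96 (43 to 46), with 1 or 2 libraries a group. Mc4r, Npy1r and Npy5r were also lower in mutants in each run, and Ghsr was higher in each. How many of all genes kept their sign over the runs was not counted here either. With the 3 runs as a covariate Npy stood at −0.66 and was not called. The log2 fold change was −0.69 ± 0.39 (adjusted p = 0.999, edgeR's quasi-likelihood test), −0.34 without control SD replicate 4, and −0.17 with an index of transcript length in the library as a covariate. At ZT6, Npy had 65.5 and 38.6 CPM in mutants, against 46.7, 81.2, 31.1 and 56.6 CPM in controls, and the groups overlapped.

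Receptor genes were not called between genotypes either. Npy1r had 11.8, 14.8, 15.7 and 15.4 CPM in mutant SD libraries, against 17.9, 17.4, 18.9 and 20.8 CPM in control SD libraries. The 2 groups did not overlap, the one such case among the 10 genes after SD, where 3.02% of all 21346 tested genes did not overlap. The log2 fold change was −0.38 ± 0.19, with an adjusted p of 0.999 in edgeR's quasi-likelihood test. At ZT6, Npy1r had 18.1 and 15.2 CPM in mutants, against 12.99, 16.5, 17.8 and 10.03 CPM in controls, and the groups overlapped. The difference between the SD responses of the genotypes was −0.60 ± 0.30 log2 for Npy1r (adjusted p = 1, edgeR's quasi-likelihood test). Mc4r, the receptor through which melanocortins reduce feeding, had 3.34 and 4.94 CPM in mutant ZT6 libraries, against 2.74, 2.89, 2.87 and 2.51 CPM in control ZT6 libraries. Both mutants lay above all controls. Groups without overlap in one direction or the other made up 6.06% of all tested genes here. Mc4r had a log2 fold change of 0.59 ± 0.30 (adjusted p = 0.999, edgeR's quasi-likelihood test). After SD the Mc4r groups overlapped and the difference had the opposite sign, at −0.51 ± 0.25 (adjusted p = 0.999 in the same test). The Mc4r value averaged over ZT6 and SD was 0.04 ± 0.20. Mc3r had 8.49, 4.88, 6.95 and 7.80 CPM in mutant SD libraries, against 12.4, 10.9, 8.03 and 5.19 CPM in control SD libraries, with overlap. Averaged over ZT6 and SD, Mc3r had the smallest p of the 10 genes, at −0.49 ± 0.27 log2 (adjusted p = 0.942, edgeR's quasi-likelihood test). Npy2r averaged 29.1 ± 6.99 CPM in mutant SD and 26.2 ± 5.20 CPM in control SD libraries, and Npy5r 3.39 ± 2.32 CPM in mutant SD and 4.33 ± 2.44 CPM in control SD libraries (SD, n = 4 each). Insr averaged 65.3 ± 5.36 CPM in mutant SD and 54.7 ± 10.03 CPM in control SD libraries (SD, n = 4 each), and all 3 receptors overlapped between the genotypes. The share of all genes called between genotypes was 0% in each of the 3 comparisons, with 566 genes at an unadjusted p under 0.05 at ZT6, 631 after SD and 768 for the average. DESeq2 called 15, 1 and 5 genes, none of them among the 10.

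Sleep deprivation was compared with undisturbed ZT6 in each genotype. In control mice, Mc4r had 4.38, 3.68, 5.93 and 4.49 CPM after SD, against 2.74, 2.89, 2.87 and 2.51 CPM at ZT6. The SD values all lay above the ZT6 values, which 1.82% of all tested genes also showed in one direction or the other. The log2 fold change was 0.74 ± 0.25, the smallest unadjusted p of the 90 values (0.00963), and the adjusted p was 0.699 in edgeR's quasi-likelihood test. Within runs of index numbers the control difference was 0.55 (1 to 4), 1.04 (5 to 18) and 0.84 (43 to 46) log2, with 1 or 2 libraries a group. Npy1r and Npy5r were also positive in each run, while Insr was negative in each. The share of all genes that kept their sign over the runs was not counted. In mutant mice, Mc4r had 2.22, 3.97, 3.96 and 2.86 CPM after SD, against 3.34 and 4.94 CPM at ZT6, and these groups overlapped. The mutant log2 fold change was −0.35 ± 0.30, and its sign turned without the 3 libraries high in pituitary genes (0.0078) and without index numbers 43 to 46 (0.023). The difference between the responses of the genotypes was −1.09 ± 0.39 log2 for Mc4r, with an unadjusted p of 0.0134 and an adjusted p of 1 in edgeR's quasi-likelihood test. It was −0.50 with all 22 libraries and −0.71 without index numbers 43 to 46.

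Of the 8 receptors, 7 had a positive value for SD in controls, with Insr the exception. Among the 7, Mc3r (0.04 ± 0.34), Npy2r (0.05 ± 0.23) and Lepr (0.15 ± 0.32) lay within their SE, so their direction is not settled. In mutants, 5 of the 8 receptors were positive for SD and 3 negative. The share of positive values over all tested genes was not counted. Npy5r, another receptor through which neuropeptide Y promotes feeding, had 2.15, 3.68, 7.83 and 3.68 CPM in control SD libraries, against 1.20, 1.76, 5.80 and 1.39 CPM in control ZT6 libraries. The groups overlapped, and the log2 fold change was 0.78 ± 0.65 (adjusted p = 0.9995, edgeR's quasi-likelihood test). Within runs of index numbers the Npy5r difference was 1.23 (1 to 4), 1.29 (5 to 18) and 1.40 (43 to 46) log2. Npy1r had 17.9, 17.4, 18.9 and 20.8 CPM in control SD libraries, against 12.99, 16.5, 17.8 and 10.03 CPM in control ZT6 libraries, and the groups overlapped. Its log2 fold change was 0.39 ± 0.19 (adjusted p = 0.831, edgeR's quasi-likelihood test), with 0.44 (1 to 4), 0.14 (5 to 18) and 1.05 (43 to 46) within runs.

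Lepr, the leptin receptor gene, had 6.65, 5.82, 5.82 and 6.84 CPM in mutant SD libraries, against 3.90 and 4.26 CPM in mutant ZT6 libraries. Ghsr had 6.91, 6.56, 6.63 and 8.81 CPM in mutant SD libraries, against 6.44 and 5.05 CPM in mutant ZT6 libraries. These were the 2 of 10 genes without overlap in mutants, where 9.67% of all tested genes did not overlap. Lepr stood at 0.62 ± 0.41 and Ghsr at 0.33 ± 0.41 log2, each with an adjusted p of 1 in edgeR's quasi-likelihood test. In controls, Lepr ranged from 3.62 to 8.60 CPM after SD and from 3.51 to 10.1 CPM at ZT6, and Ghsr from 4.09 to 8.71 CPM after SD and from 1.91 to 6.62 CPM at ZT6. Both overlapped. Insr averaged 54.7 ± 10.03 CPM after SD and 64.8 ± 14.5 CPM at ZT6 in controls (SD, n = 4 each). The peptides were uneven too: Agrp stood at −0.28 ± 0.51 and Npy at 0.15 ± 0.39 log2 in controls.

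Of all tested genes, 0% were called for SD in controls, 0% in mutants and 0% for the difference between genotypes. For SD averaged over genotypes, 1 gene of 21346 was called (0.00468%), and it was none of the 10. Unadjusted p under 0.05 was found for 1318 genes in controls, 461 in mutants, 1040 on average and 530 for the difference. DESeq2 called 13, 15, 36 and 9 genes there, none among the 10.

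**Figure D2:**
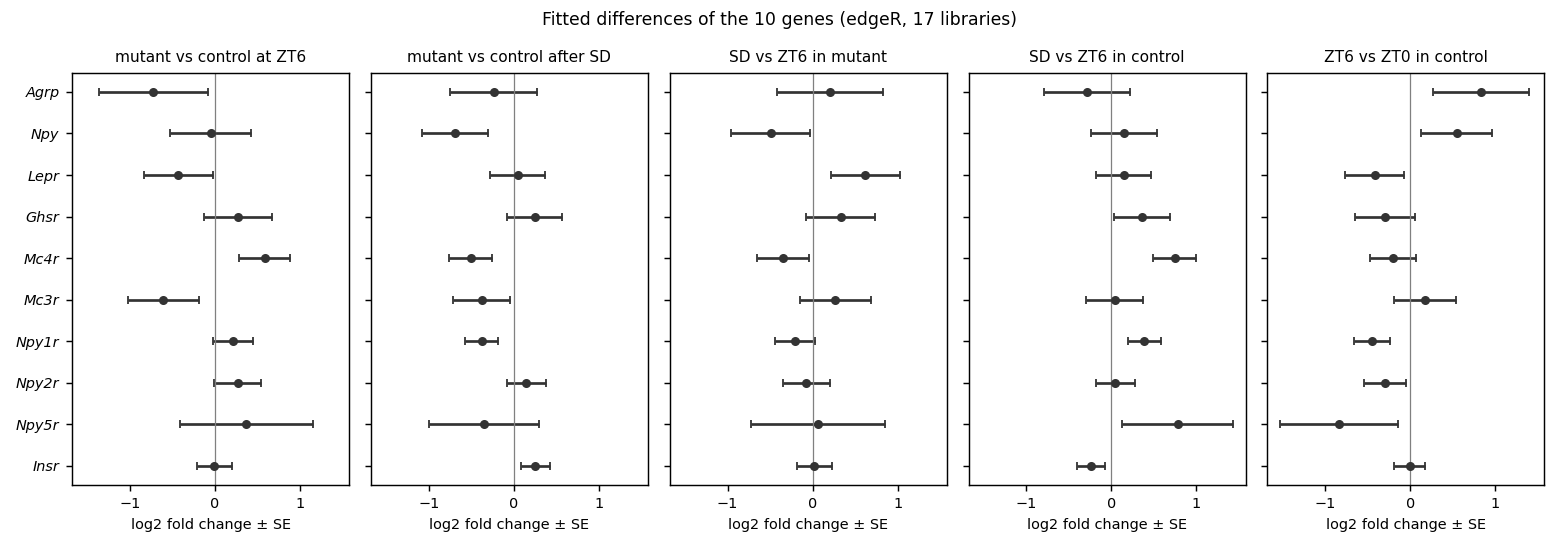
Log2 fold change ± SE (x axis) of the 10 genes (rows) in 5 comparisons, fitted with edgeR over 17 libraries. Mc4r has the largest ratio of value to SE, at 0.74 ± 0.25 for SD against ZT6 in controls, and no value was called.

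Time of day was compared in control mice. Npy1r had 12.99, 16.5, 17.8 and 10.03 CPM at ZT6, against 24.2, 15.5 and 19.0 CPM at ZT0. The groups overlapped, and the log2 fold change was −0.45 ± 0.21, with an unadjusted p of 0.0457 and an adjusted p of 0.960 in edgeR's quasi-likelihood test. Without control ZT0 replicate 1, the library with 24.2 CPM, Npy1r stood at −0.27. Agrp had 14.3, 34.9, 4.45 and 13.9 CPM at ZT6, against 10.8, 4.68 and 12.9 CPM at ZT0. Its log2 fold change of 0.83 ± 0.56 was 0.18 without control ZT6 replicate 2. Npy had 46.7, 81.2, 31.1 and 56.6 CPM at ZT6, against 50.2, 15.1 and 45.5 CPM at ZT0, with overlap and 0.54 ± 0.42 log2. None of the 10 genes separated ZT6 from ZT0, against 4.4% of all tested genes, and none separated SD from ZT0, against 16%. Neither comparison had a called gene (0% each), although 694 and 1561 genes had p under 0.05 before adjustment. DESeq2 called 24 and 32 genes.

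The 2 peptide genes moved together from library to library. Over the 17 libraries the log2 CPM of Agrp and Npy had a Pearson r of 0.839 and a Spearman rho of 0.836, with a permutation p of 5e-05 for r (adjusted 0.00225 over 45 pairs). It was the one pair of 45 that passed. The r was 0.856 without the 2 libraries farthest from the median, 0.816 within index numbers 5 to 18 and 0.877 for deviations from group means. By library, 2.33 to 6.97 Npy counts were found for each Agrp count. The log2 ratio of Agrp to Npy averaged −1.71 ± 0.227 in mutant SD and −2.15 ± 0.235 in control SD libraries (SD, n = 4 each). That difference of 0.44 had the smallest p of 6 exact permutation tests (two-sided, 0.0571, adjusted 0.343), where the design allows no p below 0.0286.

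**Figure D3:**
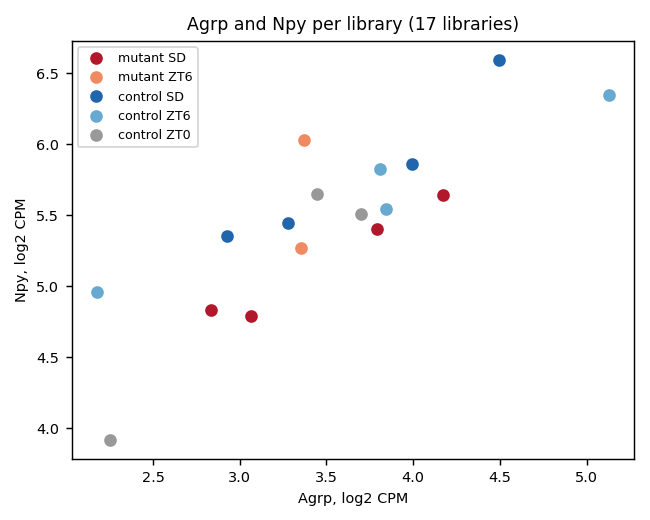
Npy against Agrp, both as log2 CPM, in the 17 libraries, coloured by group. The points follow a rising line (r = 0.839), and the groups are mixed along it.

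The same libraries differed in how much of their RNA came from short transcripts. For each library an index was taken as the median log2 deviation of 278 protein-coding genes with joined exons under 1000 bases minus that of 4623 genes over 6000 bases, without the 10 genes. It ran from −0.676 in control ZT6 replicate 3 to 1.19 in control ZT6 replicate 2, and ribosomal protein genes from 9948 to 34504 CPM in the same 2 libraries. The short transcripts of Agrp and Npy were higher where the index was high, with r of 0.819 and 0.755 (adjusted permutation p = 9e-04 and 0.004 over 10 genes). The 2 libraries farthest from the median were control SD replicate 4 and control ZT6 replicate 2, and without them r was 0.638 and 0.633. Insr and Lepr, with the longest joined exons, ran the other way at −0.595 and −0.540 (adjusted permutation p = 0.0335 and 0.0361), and at −0.774 and −0.717 without those 2. Ghsr (−0.751) and Npy2r (−0.614) also passed, but were weaker without the 2 libraries, at −0.203 and −0.339. By Spearman rho over all 17 libraries Ghsr stood at −0.561 and Npy2r at −0.547, beside −0.569 for Insr and −0.610 for Lepr. Mc4r (0.164), Mc3r (0.319), Npy1r (0.113) and Npy5r (−0.328) did not pass. The index averaged −0.210 ± 0.0958 in mutant SD libraries, 0.0167 ± 0.107 in mutant ZT6, 0.271 ± 0.385 in control SD, 0.167 ± 0.767 in control ZT6 and −0.272 ± 0.137 in control ZT0. With the index as a covariate, Agrp was at 0.22 ± 0.26 for mutant against control on average, and at −0.19 ± 0.36 for ZT6 against ZT0, both opposite in sign to the values without it. For Mc4r the SD value in controls was 0.75 ± 0.25 with the covariate. What part the index had in these values was not tested.

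**Figure D4:**
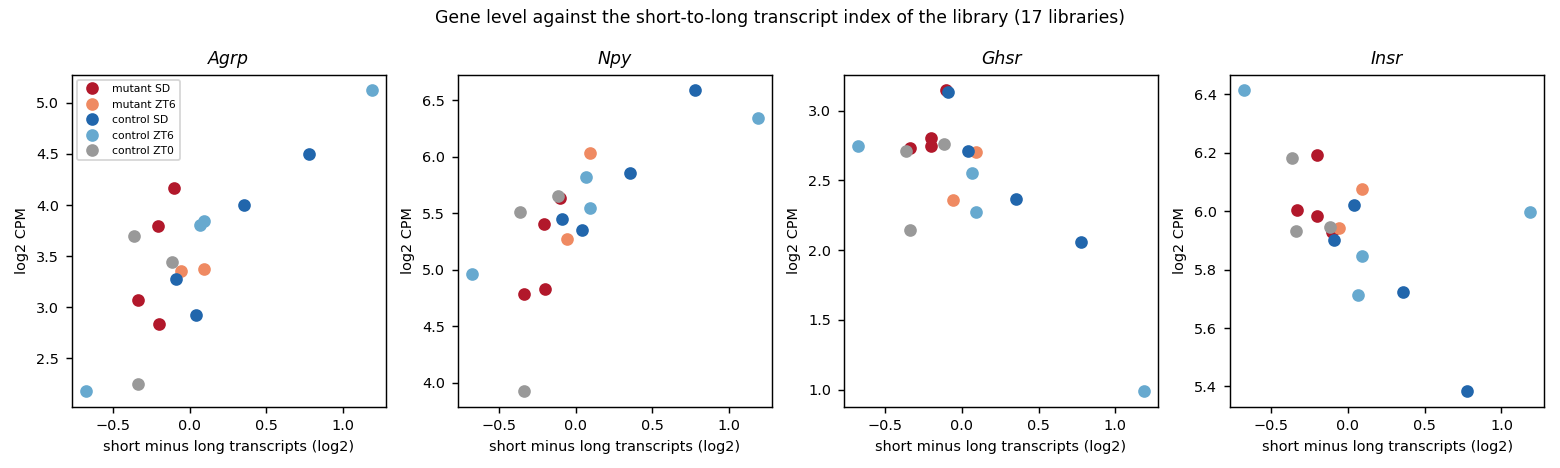
Log2 CPM of Agrp, Npy, Ghsr and Insr (y axes) against the short-minus-long transcript index of the library (x axis, log2), by group. Agrp (r = 0.819) and Npy (r = 0.755) rise with the index, and Ghsr (r = −0.751) and Insr (r = −0.595) fall.

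Genes with the pattern most like each of the 10 were ranked among 16739 genes with a mean of at least 1 CPM, by Pearson r of log2 CPM over the 17 libraries. Among the closest to Agrp were Ier5 (0.913), Rpl34 (0.912), which encodes a ribosomal protein, Rps23-ps1 (0.901) and Acadvl (0.892). For Npy they were Haus7 (0.904), Gins4 (0.873), Rassf1 (0.853), Nop16 (0.851) and Morn5 (0.848), and Agrp ranked 6 by the same measure. Npy ranked 48 among the genes closest to Agrp. The closest to the receptors were Tdrd5 for Lepr (0.831), Pdcd6ip for Ghsr (0.899), Tram1l1 for Mc4r (0.767), Dcaf11 for Mc3r (0.874), Rab3ip for Npy1r (0.785), Cdkl2 for Npy2r (0.932), Rbm18 for Npy5r (0.927) and Gm14022 for Insr (0.921). These r carry no test, and the 17 libraries differ in depth and in the short-to-long index.

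Partner genes of the pathway were followed in 5 lists. Of 13 melanocortin partners, 19 genes of leptin and insulin signalling, 6 tested partners of neuropeptide Y and ghrelin, 8 arcuate transcription factors and 7 tested arcuate peptides, none was called in any comparison. The neuropeptide Y and ghrelin list had its smallest p in Gpr83, which encodes a G protein-coupled receptor. Gpr83 had 30.2, 34.9, 41.4 and 32.1 CPM in mutant SD libraries, against 56.2, 46.9, 44.2 and 49.4 CPM in control SD libraries. It stood at −0.51 ± 0.16 log2 (adjusted p = 0.999, edgeR's quasi-likelihood test). These groups did not overlap, as for 3.02% of all tested genes. Since Gpr83 was picked for its small p, the lack of overlap adds no support. Among the leptin and insulin genes, Irs1, an adaptor of the insulin receptor, stood at 0.51 ± 0.26 in the same comparison. For SD against ZT6 in controls, 13 of 19 of these genes were positive, with a median of 0.16 log2, where all tested genes had a median of −0.020. Pomc, the precursor of the melanocortins, had 4096, 18.6, 21.5 and 104 CPM in mutant SD libraries, against 92.2, 76.5, 29.1 and 90.4 CPM in control SD libraries. Its highest value was in the library with 20842 CPM of pituitary hormone genes, and the pituitary also makes Pomc. Sst, which encodes somatostatin, had 123, 232, 103 and 183 CPM at ZT6, against 101, 90.7 and 75.4 CPM at ZT0, with 0.85 ± 0.30 log2 (adjusted p = 0.960, edgeR's quasi-likelihood test). All 7 arcuate peptides were positive in that comparison, at a median of 0.82 log2, beside a median of 0.091 over all tested genes. In the same comparison all 5 blood and all 5 microglia markers were positive (medians 0.63 and 0.23 log2), and the length index averaged 0.167 at ZT6 and −0.272 at ZT0. The highest ZT6 value of Pomc, 1144 CPM, was in the control library high in pituitary genes. Their part in the peptide values was not tested.

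Control ZT6 replicate 2 stood apart for several of these genes. It had the highest Agrp of the 17 libraries (34.9 CPM), the highest Cartpt (160 CPM), which encodes another arcuate peptide, and the lowest Ghsr (1.91 CPM). Its sum of meningeal and fibroblast markers was the highest, at 2881 CPM, of which Ptgds, a prostaglandin synthase gene of meninges and glia, made up 2693 CPM. The collagen gene Col1a1 stood at 13.5 CPM there and Dcn at 13.6 CPM, within the range of the other libraries. Its hypothalamic marker sum was also the highest, at 2187 CPM, of which Pmch made up 911, Avp 716 and Oxt 356 CPM. Not all markers of that list were high there. Sim1 (8.21 CPM), Nkx2-1 (27.5 CPM) and Otp (36.2 CPM) lay low in the range of the 17 libraries. Its neuronal marker sum, 2268 CPM, was near the low end of the 2098 to 3525 CPM found over the libraries. The part of these in the values of the 10 genes was not tested.

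The 5 libraries left out had few transcripts of most of the 10 genes. Counts of Agrp were 0 to 8 and of Npy 0 to 32, and Ghsr and Npy5r had 0 counts in all 5. Npy1r reached 213 counts (6.62 CPM of the library total) and Lepr 52 (1.62 CPM), both in mutant ZT0 replicate 2. Insr, which most tissues express, still had 134 to 2281 counts in the 4 of them that held more than 7348 counts in all.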

How the data were processed

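Per the labels' protocols, Trizol was used for RNA, a TruSeq polyA kit for libraries and a NovaSeq 6000 for sequencing, and reads were quantified with kallisto against an Ensembl 79 index. Per the submitters' processing notes, Trimmomatic 0.38 and kallisto 0.44.0 were used. The deposited values are kallisto's estimated counts (expected counts) per gene, already whole numbers and not normalized by the authors. The labels name DESeq2 with an adjusted p under 0.05 and over 2-fold as the authors' test.

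The 5 of 41461 lines that repeat an ID were dropped, and the 17 of 22 libraries with neural transcripts were used. The other 5 were left out because of their content in these data: 4 held few neural transcripts and 1 held 7348 counts. At 14.6 to 47.0 counts of 1e+06 per library, a 0 allows up to 3 counts or 0.0639 to 0.205 CPM, which covers counting error only. Genes were tested with edgeR 4.0.16 (R 4.3.3): TMM, filterByExpr (min.count 10, min.total.count 15), 1 quasi-likelihood fit of 5 groups without covariates, 21346 genes, 9 comparisons, two-sided, adjusted by Benjamini-Hochberg and called below 0.05. The SE was derived as |log2 fold change| divided by √F. The script was tested on simulated data. Correlations used log2 CPM (prior count 2) and 100000 permutations. Coordinates are from GENCODE M21.

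The genes, lists and tests were chosen with earlier results of these data known. Named partners are the called genes of each list or the one with the smallest p, and not all are printed. Of the genes most like Agrp, 1 is not reported here. Cartpt, Ptgds, Col1a1, Dcn and the libraries singled out were chosen after their values were seen. The transcript length index was added after seeing the data. Replicate numbers follow accession order and pair nothing. The labels do not say what the index numbers mean, nor that samples come from separate litters or dissections, so p-values measure only the spread between these samples.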

Additional observations from a re-analysis of the deposited data

Results flagged for a closer look

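Dixon's test was applied to the 33 sets of 4 libraries formed by the 10 genes and the Agrp to Npy ratio, and 3 values stood far from the rest of their group, where chance flags about 1 in 20. Lepr in control ZT6 replicate 3 was 10.1 CPM, with the other control ZT6 libraries at 3.51 to 4.39 CPM. Npy5r in the same library was 5.80 CPM, with the others at 1.20 to 1.76 CPM. That library had the lowest transcript length index of the 17, at −0.676. Ghsr in mutant SD replicate 4 was 8.81 CPM, with the others at 6.56 to 6.91 CPM, and that library held 1153 CPM of pituitary hormone genes. Mutant SD replicate 1, with 20842 CPM of the same list, had Ghsr at 6.91 CPM. What part these had in the 3 values was not tested.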

How the results depend on the processing

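None of the 10 genes was called in any comparison under any of 12 alternatives or 17 fits that left out 1 library, and the smallest adjusted p was 0.347. The 12 include the main fit with a limit of over 2-fold added, a stricter rule that could call no further gene. Directions were tabulated for the 36 of 90 values larger than their SE, a limit chosen after the results were seen: 386 of 396 alternative values that could change sign and 317 of 318 values without 1 library kept their sign. Of the 54 values within their SE, 86 of 594 alternatives and 79 of 522 values without 1 library had the opposite sign, so those directions are not stable. The reversed values were Npy2r for mutant against control on average (−0.074 with all 22 libraries, −0.056 with 21), Npy for SD against ZT6 in mutants (0.16 with 22, 0.087 with 21) and Mc4r in the same comparison (0.27 with 22, 0.26 with 21, 0.023 without index numbers 43 to 46, 0.0078 without the pituitary-high libraries). Agrp reversed with the length index as a covariate (0.22 and −0.19), and Lepr at ZT6 between genotypes without control ZT6 replicate 3, in a range of −0.59 to 0.067. The cause was not tested.

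Leaving out 1 library gave ranges for the Agrp to Npy log2 ratio of −0.27 to 0.26 (ZT6 against ZT0), −0.50 to 0.030 (SD against ZT6 in controls) and −0.73 to 0.011 (mutant against control at ZT6), each with a change of sign. The number of correlated pairs past adjustment was 1 of 45, 0 within index numbers 5 to 18, which leaves fewer libraries, and 2 without the pituitary-high libraries. With the longest transcript, Insr per length was 6.69 CPM per kb and Npy1r 5.53, the reverse of their order with joined exons. Agrp was 17.6 CPM per kb by the same measure. No paired analysis was possible because the labels give no replicate numbers. With the 3 runs of index numbers as a covariate, 3 genes were called for mutant against control after SD and 4 for SD averaged over genotypes, none of them among the 10. Mc4r and Npy5r rest on as few as 36 and 20 counts per library, which limits what could be detected for them.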
